A study of Mus musculus with 68 samples.

Results

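Cumulus expansion genes are the genes with which cumulus cells (CCs), the somatic cells around the oocyte, answer the ovulatory hormone surge. 9 of the 24421 reference genes listed in every library were taken as this set by name, namely Areg, Ereg, Btc, Ptgs2, Has2, Tnfaip6, Ptx3, Vcan and Pgr, and all 9 were found in all 68 gene tables. Members were chosen by name for their known function, with no threshold on a measured value.

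As background, luteinizing hormone acts on the outer granulosa cells of the follicle, which release the EGF-like growth factors amphiregulin (Areg), epiregulin (Ereg) and betacellulin (Btc). These bind the EGF receptor on cumulus cells, and cumulus cells then make prostaglandins through Ptgs2 and a hyaluronan matrix through Has2, which is held together by the proteins of Tnfaip6, Ptx3 and Vcan. The matrix spreads the cumulus cells apart, and the expanded complex is what is ovulated. Pgr, the progesterone receptor, is induced by the same surge mainly in mural granulosa cells.

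The 68 RNA libraries were made by Smart-seq2, which copies polyadenylated RNA from a few cells. They came from CCs, from embryos made by somatic cell nuclear transfer (SCNT) of a CC nucleus into an enucleated oocyte, and from fertilized blastocysts. Each embryo library is listed with 10 blastomeres, the cells of the embryo, and no cell number is listed for CCs. The number of embryos behind a library is not listed. There were 3 CC libraries, 5 libraries of SCNT embryos at 4C (4-cell) and 6 at each of 6 and 14 h post activation (hpa), early 2-cell (E2C), late 2-cell (L2C), 8-cell (8C) and morula stages and of both blastocyst lineages, the inner cell mass (ICM) and the trophectoderm (TE). Another 12 libraries, 2 a group, were the ICM and TE of fertilized blastocysts labelled as control and untreated, or injected with a morpholino (MO) against Max or Mcrs1. The labels' untreated differs from the study, which describes its control ICM and TE as from embryos given a control MO of random sequence. By its account that MO was injected at a higher concentration than the Max or Mcrs1 MO. The part of this dose in the MO contrasts was not tested. SCNT embryos were activated with SrCl2 in the presence of cytochalasin B. CCs and oocytes came from superovulated B6D2F1 females whose cumulus-oocyte complexes were taken 14 h after hCG and freed with hyaluronidase. All groups therefore share the superovulation of the oocyte donors. No CCs from unstimulated females or from another time after hCG were among the libraries used here. The fertilized blastocysts, of C57BL/6j mice and from another experiment, differ from the SCNT blastocysts in strain, experiment and embryo type, whose effects cannot be told apart. ICM and TE were separated by micromanipulation. The study describes the replicates of the SCNT and of the fertilized RNA samples as biological. The labels do not say whether they came from separate collections of embryos, so p-values measure only the spread between these libraries.

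Levels are TPM, which are scaled for transcript length and to a fixed total of the loci assembled in each library. They can thus be compared between genes and are shares of that total. The reference genes, from which all levels here were read, summed to 30.4% to 94.4% of it. A lower TPM can mean fewer cells that carry the RNA, less of it per cell or more RNA of other genes, which cannot be told apart. In SCNT embryos that other RNA includes the RNA of the oocyte. Across the 68 libraries 1.00 to 5.15 gigabases were aligned, with a median of 3.05, and 6177 to 11771 genes reached 1 TPM. No read counts were given, so a level listed at 0 can be a missed gene. None of 12 housekeeping genes was at 0 in any library, but in 13 libraries some of them were under 1 TPM. Their medians ran from 9.41 to 2382 TPM, so they say little about genes near 1 TPM. In the CC libraries 8 of 10 cumulus and granulosa markers reached 1 TPM in every library, with a summed level of 3092 to 4871 TPM, against 0.543 to 2.39 TPM for 8 oocyte markers, and Amh was listed at 0 in all 3. At 6 hpa the oocyte markers summed to 2495 to 4888 TPM and the cumulus markers to 120.0 to 282.6 TPM, of which only Serpine2 and Kitl reached 1 TPM in any library. The 6 blood cell markers, of which 1 was at 0, summed to 8.69 to 86.0 TPM in CCs, and their part in the CC levels was not tested.

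Promoter sequences are given as a description of where some members start. RefSeq promoters of the GRCm38.p6 build, the patch release of mm10, were at hand for 7 of the 9 members, and the 250 bases before the start are given for Areg (chr5:91139349-91139598), Ptgs2 (chr1:150099781-150100030) and Tnfaip6 (chr2:52037863-52038112), all on the plus strand, since the results turn on these genes. Capitals mark the letters searched on both strands, which were TGACGTCA (the cyclic AMP response element), its 5-base core TGACG, TTGCGCAA (a C/EBP motif), TGANTCA (an AP-1 motif) and TATAAA (the TATA box).
Areg: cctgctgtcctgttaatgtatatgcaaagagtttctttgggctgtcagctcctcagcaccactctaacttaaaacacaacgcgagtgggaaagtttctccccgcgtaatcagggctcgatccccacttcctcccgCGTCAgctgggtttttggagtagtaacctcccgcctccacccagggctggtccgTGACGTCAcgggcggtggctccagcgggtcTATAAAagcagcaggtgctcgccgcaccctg
Ptgs2: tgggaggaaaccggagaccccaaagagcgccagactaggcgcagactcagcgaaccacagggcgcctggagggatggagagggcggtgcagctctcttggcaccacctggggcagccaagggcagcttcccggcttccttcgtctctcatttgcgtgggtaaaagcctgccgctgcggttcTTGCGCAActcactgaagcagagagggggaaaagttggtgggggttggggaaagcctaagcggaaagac
Tnfaip6: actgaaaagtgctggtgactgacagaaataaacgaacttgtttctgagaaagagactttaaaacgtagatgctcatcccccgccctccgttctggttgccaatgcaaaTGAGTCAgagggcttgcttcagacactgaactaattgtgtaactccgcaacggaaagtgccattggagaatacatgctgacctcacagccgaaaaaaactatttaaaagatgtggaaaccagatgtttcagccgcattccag
Areg held TGACGTCA 61 bases and TATAAA 31 bases before the start, and a further TGACG, on the other strand, 115 bases before it. TGACGTCA stood in 1.55% and TATAAA in 12.4% of 32851 promoters of the same length. Ptgs2 held TTGCGCAA 69 bases before the start, as did 0.164% of promoters at some place. Tnfaip6 held TGAGTCA 142 bases before the start, and 6.75% of promoters held TGANTCA. The core TGACG, which is contained in TGACGTCA, stood in 17.8% of promoters and, beside Areg, in that of Btc. Pgr held TATAAA on the other strand 212 bases before the start, and the promoters of Ptx3 and Vcan held none of the letters searched. TGACGTCA, TTGCGCAA and TGANTCA each stood in only 1 of the 7 members. Distances are from the RefSeq start, which for Areg and Ptgs2 lies before the gene start listed below. A match of letters is a description of the sequence and was not tied to any measurement.

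At the RNA level, CCs held much of the matrix protein genes, of Ptgs2 and of all 3 growth factor genes, little Has2 and next to no Pgr. No protein was measured in these libraries. The 9 levels spanned from under 1 to over 800 TPM, and the 7 highest were above 8 TPM in every CC library. Of the 9 members 8 reached 1 TPM in at least 1 CC library, and their summed level was 1277 to 1497 TPM.

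Among the growth factors, Btc (chr5:91357261-91402994, minus strand, mm10) was the highest, at 80.0 ± 3.92 TPM (SD, n = 3). Areg (chr5:91139615-91148432, plus strand) was at 24.9, 8.63 and 19.8 TPM in replicates 1 to 3. Ereg (chr5:91074617-91093649, plus strand), its neighbour on the chromosome, was at 13.9 ± 1.90 TPM (SD, n = 3), within the range of Areg. Areg was the most variable of the 7, since its lowest library was well under the other 2.

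Ptgs2 (chr1:150100124-150108012, plus strand), the inducible cyclooxygenase that starts prostaglandin synthesis, stood at 243 ± 16.6 TPM (SD, n = 3), the second level of the set. Has2 (chr15:56665627-56694546, minus strand), the hyaluronan synthase of the expanding cumulus, was at 0.341, 1.12 and 0.591 TPM, so that 1 of 3 CC libraries reached 1 TPM. No locus was assembled over Has2 in any CC library. The RNA of the enzyme that makes hyaluronan was thus lower in CCs than that of every other member but Pgr.

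Tnfaip6 (chr2:52038113-52056681, plus strand), whose protein TSG-6 moves heavy chains of inter-alpha-inhibitor onto hyaluronan, was at 968, 830 and 794 TPM, the highest of the set in each CC library. Ptx3 (chr3:66219887-66225806, plus strand), a pentraxin that crosslinks those heavy chains, was at 92.4 ± 20.0 TPM (SD, n = 3). Vcan (chr13:89655310-89742512, minus strand), the proteoglycan versican that binds hyaluronan, was at 51.7 ± 4.34 TPM (SD, n = 3). Ptx3, Btc and Vcan stood next to each other in the order of levels, and Ptx3 and Btc overlapped in range, whereas the lowest Btc library, at 75.5 TPM, was above the highest Vcan library, at 55.6 TPM. Pgr (chr9:8899833-8968611, plus strand) was at no more than 0.0193 TPM in CCs and listed at 0 in 1 of the 3 libraries. Each of the 7 members other than Has2 and Pgr was covered over its whole length by an assembled locus in all 3 CC libraries.

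**Figure D1:**
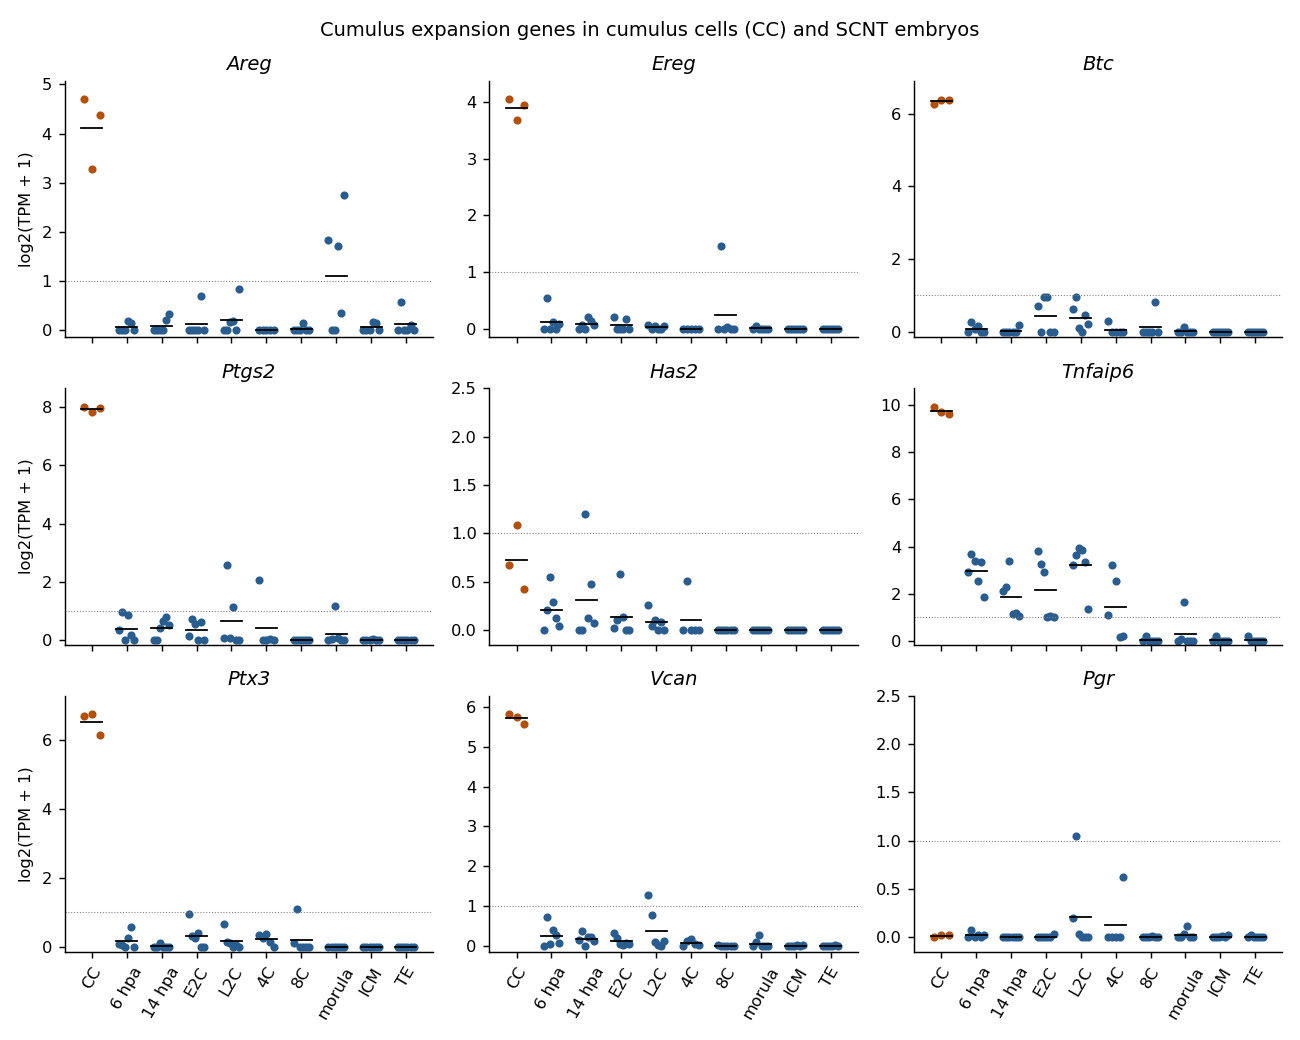
Level of each cumulus expansion gene as log2(TPM + 1) in CCs (orange) and at each SCNT stage and lineage (blue). Points are libraries, bars are group means and the dotted line marks 1 TPM; the 7 high members of CCs fall at 6 hpa, Tnfaip6 is at 1.01 to 14.5 TPM from 6 hpa to L2C and at 0.128 to 8.21 TPM at 4C, and Areg is seen in some morula libraries.

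The next comparison set the levels in CCs against those in SCNT embryos at 6 hpa. No oocyte library was used here, so RNA of the donor cell, of the oocyte and of the embryo cannot be told apart. Oocyte RNA can also lower the share of CC RNA without any loss of it, and its part in the changes was not tested. At 6 hpa all 7 members with high CC levels were lower than in CCs, from Ereg at -3.77 to Ptgs2 at -7.53 on the log2 scale of TPM + 1, and Tnfaip6 alone was at 1 TPM or more. limma, fitted on all genes, called 7 of 9 members lower and 0 higher (Benjamini-Hochberg adjusted p under 0.05 and at least 2-fold), where 24% of the 22742 genes tested were called lower and 15.9% higher. The 7 members were also those whose libraries did not overlap between CCs and 6 hpa, as 26.5% of genes did in that direction.

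The growth factors fell as a group. Btc changed by -6.26 ± 0.15 (SE) on the log2 scale of TPM + 1, with limma adjusted p = 1.44e-09, and lay between 0 and 0.193 TPM at 6 hpa. Areg changed by -4.06 ± 0.29 (limma adjusted p = 1.65e-06) and Ereg by -3.77 ± 0.20 (limma adjusted p = 2.11e-07). The highest library at 6 hpa held 0.130 TPM of Areg and 0.465 TPM of Ereg, so both were far under the lowest CC library.

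Ptgs2 changed by -7.53 ± 0.25 (SE), with limma adjusted p = 1.24e-08, from 224 to 255 TPM in CCs to between 0 and 0.942 TPM. Ptx3 changed by -6.36 ± 0.21 (limma adjusted p = 1.12e-08) and Vcan by -5.46 ± 0.20 (limma adjusted p = 2.39e-08). Has2 changed by -0.52 ± 0.16, with limma adjusted p = 0.0226, which is less than 2-fold, and its libraries overlapped. Pgr, at most 0.0532 TPM at 6 hpa, gave 0.00 ± 0.03 with limma adjusted p = 0.915. These folds are compressed by the pseudocount of 1, most for genes near 0.

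Tnfaip6 changed by -6.79 ± 0.36 (SE), with limma adjusted p = 2.12e-07, and had a lowest level of 2.67, a median of 7.79 and a highest of 11.95 TPM over the 6 libraries at 6 hpa. Its mean of 7.43 TPM was 0.860% of the CC mean. The means of the other 6 at 6 hpa were between 0.0758% of the CC mean for Btc and 0.731% for Ereg. These shares rest on few libraries, and that of Ereg on replicate 2, without which it was 0.210%. Without the highest library of each, a choice made after the values were seen, Vcan went from 0.407% to 0.238%, Areg from 0.212% to 0.108%, Ptx3 from 0.141% to 0.0637% and Btc to 0.0426%, whereas Tnfaip6 was at 0.755%. Of the 9 cumulus markers listed above 0 in CCs, 7 had a larger share at 6 hpa than Tnfaip6 and 2 a smaller one, from 0.0219% for Inha, the inhibin alpha subunit, to 123.7% for Kitl, the ligand of the receptor Kit. The larger shares of Foxl2, Amhr2, Fshr, Nr5a1 and Gatm rest on 6 hpa means of 0.0248 to 0.195 TPM. Over the 5239 genes with a CC mean of at least 10 TPM, the median share at 6 hpa was 22.3%. Of these genes 11.7% had a share under 1%, as did all 7 members.

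At 14 hpa the same 7 members were called lower than in CCs by limma, where 23.5% of 21166 genes were. Tnfaip6 was at -7.88 ± 0.51 (SE) with limma adjusted p = 2.68e-06, Ptgs2 at -7.52 ± 0.23, Ptx3 at -6.50 ± 0.20, Btc at -6.31 ± 0.17, Vcan at -5.54 ± 0.18, Areg at -4.03 ± 0.32 and Ereg at -3.81 ± 0.19. The highest of the adjusted p-values of these 7 was that of Areg, 9.33e-06. CC libraries are shared by both comparisons, so the 7 folds at 14 hpa are no second test of those at 6 hpa. The leaving out of any library of the compared groups left 7 members called in each comparison.

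**Figure D2:**
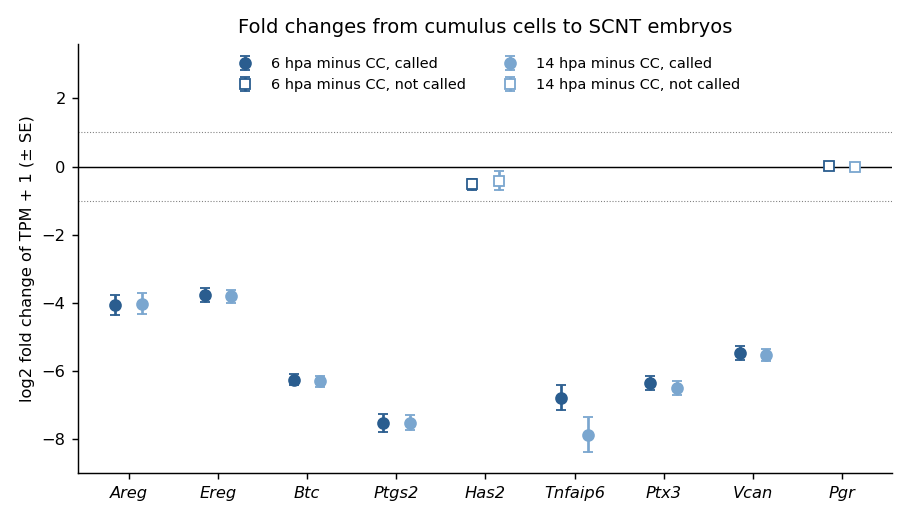
Log2 fold change of TPM + 1 from CCs to 6 hpa (dark) and 14 hpa (light) for each member, with the SE of limma. Filled circles were called and open squares were not, and dotted lines mark 2-fold; 7 members lie between -3.77 and -7.88, and Has2 and Pgr lie within 2-fold.

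Other genes of the same biology were read from 5 lists. Of 22 genes of the gonadotropin, progesterone and ovulation response, 18 were lower at 6 hpa than in CCs, 0 were higher and 4 were not called, where 24% of all genes were lower and 15.9% higher. Their median was -3.17 against 0.02 over all genes. They included Sult1e1, an estrogen sulfotransferase, at -6.48 ± 0.27 (SE) with limma adjusted p = 4.97e-08 and the transcription factors Runx1 at -5.10 and Cebpb at -3.21. The LH receptor Lhcgr changed by -3.13 with limma adjusted p = 8.03e-06. Rgs2, a regulator of G protein signalling, was not called and lay at 866 to 1065 TPM in CCs and at 530 to 830 TPM at 6 hpa.

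Of the 22 tested genes of the hyaluronan matrix list, 7 fell, 0 rose and 15 were not called, with a median of -0.11 against 0.02 over all genes. The share that fell was near the 24% of all genes that did. Cd44, the hyaluronan receptor of the cumulus surface, fell by 4.38 on the log2 scale from a CC mean of 20.4 TPM, and the versican-cleaving protease Adamts1 fell by 5.39 from 44.3 TPM. Has3, a second hyaluronan synthase, was not called, at 0.0519 TPM in CCs and 1.25 TPM at 6 hpa.

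Of the 14 prostaglandin genes, 7 fell, 4 rose and 3 were not called, beside 24% and 15.9% of all genes, with a median of -0.71. Pla2g4a, the phospholipase that frees arachidonic acid, fell by 6.82, the prostaglandin E synthase Ptges fell by 2.21 and the receptor Ptger2 fell by 2.70, while the receptor Ptger4 rose by 1.67. Of the 13 EGF receptor genes, 4 fell, 3 rose and 6 were not called, near the 24% and 15.9% of all genes, with a median of 0.29. Egfr itself was not called, at 3.59 TPM in CCs and 5.80 TPM at 6 hpa, and the growth factor Hbegf rose by 1.65. Of the 12 receptors and transducers of oocyte factors, 5 fell, 2 rose and 5 were not called, beside the same 24% and 15.9%, with a median of -0.22. RNA of the EGF receptor was thus listed in embryos in which that of Areg, Ereg and Btc was near 0.

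Between 6 and 14 hpa limma called 0 of the 9 members, where 5.29% of 23938 genes were called in either direction, and 1 of the 9, Tnfaip6, had an unadjusted p under 0.05. Tnfaip6 ran from 1.11 to 9.55 TPM at 14 hpa with a median of 2.30. The change was -1.09 ± 0.47 (SE) with limma adjusted p = 0.178. An exact two-sided permutation test of this value gave p = 0.0519, or 0.0952 after Benjamini-Hochberg adjustment over the 11 stage pairs so tested. Of the other members, only Has2 reached 1 TPM at 14 hpa, at 1.30 TPM in replicate 3, where an assembled locus covered the whole gene.

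Tnfaip6 was the member at 1 TPM or more in the most SCNT libraries. After 14 hpa it was at 12.9, 8.61 and 6.64 TPM in E2C replicates 1 to 3 and at 1.01, 1.09 and 1.01 TPM in replicates 4 to 6. At L2C replicates 1 to 6 held 8.22, 11.6, 14.5, 13.4, 9.33 and 1.57 TPM. At 4C replicates 1 to 5 held 1.14, 8.21, 4.81, 0.128 and 0.159 TPM. At L2C, 5 of 6 libraries thus lay above 8 TPM, and by 4C the libraries ranged from near 0 to the L2C level. The highest library held 0.149 TPM at 8C, 0.162 TPM in the ICM and 0.169 TPM in the TE, and of 6 morula libraries replicate 3 held 2.17 TPM and the others at most 0.0755 TPM.

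The levels of Tnfaip6 up to 4C went with the replicate number. At 14 hpa replicates 1 to 3 were at 3.31 to 9.55 TPM and replicates 4 to 6 at 1.11 to 1.29 TPM, and at E2C and 4C lower and higher numbers did not overlap either, whereas at 6 hpa and L2C they did. The labels do not say what the numbers stand for. At 14 hpa the oocyte markers summed to 1182 to 1712 TPM in replicates 1 to 3 and to 3493 to 4168 TPM in replicates 4 to 6. The cumulus markers summed to 28.8 to 82.4 TPM and to 150.7 to 232.5 TPM. Nearly all of the cumulus sum was Serpine2, at 28.1 to 229 TPM over the 14 hpa libraries. The reference genes made up 53.7% to 63.8% of the library total in the lower numbers and 65.2% to 69.2% in the higher. The part of these differences in the Tnfaip6 levels was not tested.

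**Figure D3:**
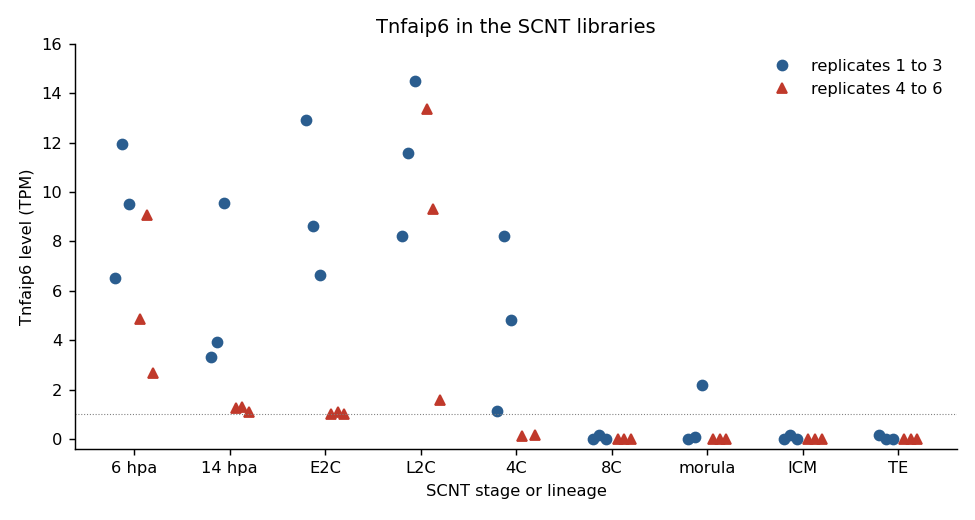
Tnfaip6 in TPM in each SCNT library, with replicates 1 to 3 as circles and replicates 4 to 6 as triangles, and 1 TPM dotted. Libraries of replicates 1 to 3 lie above those of replicates 4 to 6 at 14 hpa, E2C and 4C, 5 of 6 L2C libraries lie above 8 TPM, and from 8C on 1 morula library at 2.17 TPM stands alone.

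limma called 6 of 63 pairs of a member and a later stage against 14 hpa, of which 5 were Tnfaip6. With a pseudocount of 0.1 the count was 13, of which 2 were higher and 11 lower. Added pairs were Has2 lower at 8C, morula, ICM and TE, Vcan lower at 8C, ICM and TE and Btc higher at L2C, while Tnfaip6 at L2C was lost. At that setting 713 of 23938 genes were called at E2C and 10255 at morula, against 623 and 8646 with a pseudocount of 1. The falls of Has2 and Vcan start near 0. At 14 hpa Has2 had a median of 0.0707 TPM, with 1.30 TPM in the highest library, and Vcan was at most 0.286 TPM. Tnfaip6 rose at L2C by 1.36 ± 0.47 (SE), with limma adjusted p = 0.0231, where 15.1% of genes were called higher, and L2C overlapped 14 hpa. This call was not firm. An exact two-sided permutation test gave p = 0.0368, adjusted to 0.0952 over the 11 stage pairs. Within replicates 1 to 3 the change was 1.00 (limma adjusted p = 0.130) and within replicates 4 to 6 it was 1.72 (limma adjusted p = 0.00323). The call was lost without any of 14 hpa replicates 4, 5 and 6 and L2C replicates 3 and 4, with changes of 1.20 to 1.24 and limma adjusted p of 0.0517 to 0.0627.

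The falls after L2C were larger. Against 14 hpa Tnfaip6 changed by -1.84 ± 0.47 (SE) at 8C, with limma adjusted p = 0.00108, where 16.8% of genes were called lower. It changed by -1.58 at morula (limma adjusted p = 0.00478, 15.3% of genes lower), by -1.84 in the ICM (limma adjusted p = 0.00111, 16.6%) and by -1.84 in the TE (limma adjusted p = 0.00107, 15.4%). 8C, ICM and TE did not overlap 14 hpa, as 16.2%, 13.6% and 14.5% of genes did not in that direction, and morula overlapped it through replicate 3. An exact two-sided permutation test of 8C against 14 hpa gave p = 0.00216, the smallest it can give, adjusted to 0.0238. These comparisons share the 14 hpa libraries.

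The assembled loci give another view of the same reads. In all 3 CC libraries the locus assembled over Tnfaip6 had exactly the bounds of the reference gene, which is 18569 bases long. A same-strand locus over at least 95% of the gene was found in 1 of 6 libraries at 6 hpa, 2 of 6 at 14 hpa, 3 of 6 at E2C, 5 of 6 at L2C, 2 of 5 at 4C, 0 of 6 at 8C and 1 of 6 at morula. The morula library was replicate 3, the same that held 2.17 TPM. The remaining libraries at 6 hpa, 14 hpa, E2C and L2C held partial loci, as did 1 at 4C, while 2 at 4C, all 6 at 8C and the other 5 at morula held none. In 14 hpa replicate 1 these were 2 short ones around exon 1 and within exon 6, and in L2C replicate 6, the low L2C library, 1 short one around exon 1. In L2C replicate 4 the locus began at -13005 bases relative to the listed start. An antisense locus lay over the gene in 1 E2C and 1 L2C library, and the source does not state whether reads were counted by strand, so reads of the opposite strand cannot be told apart there.

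**Figure D4:**
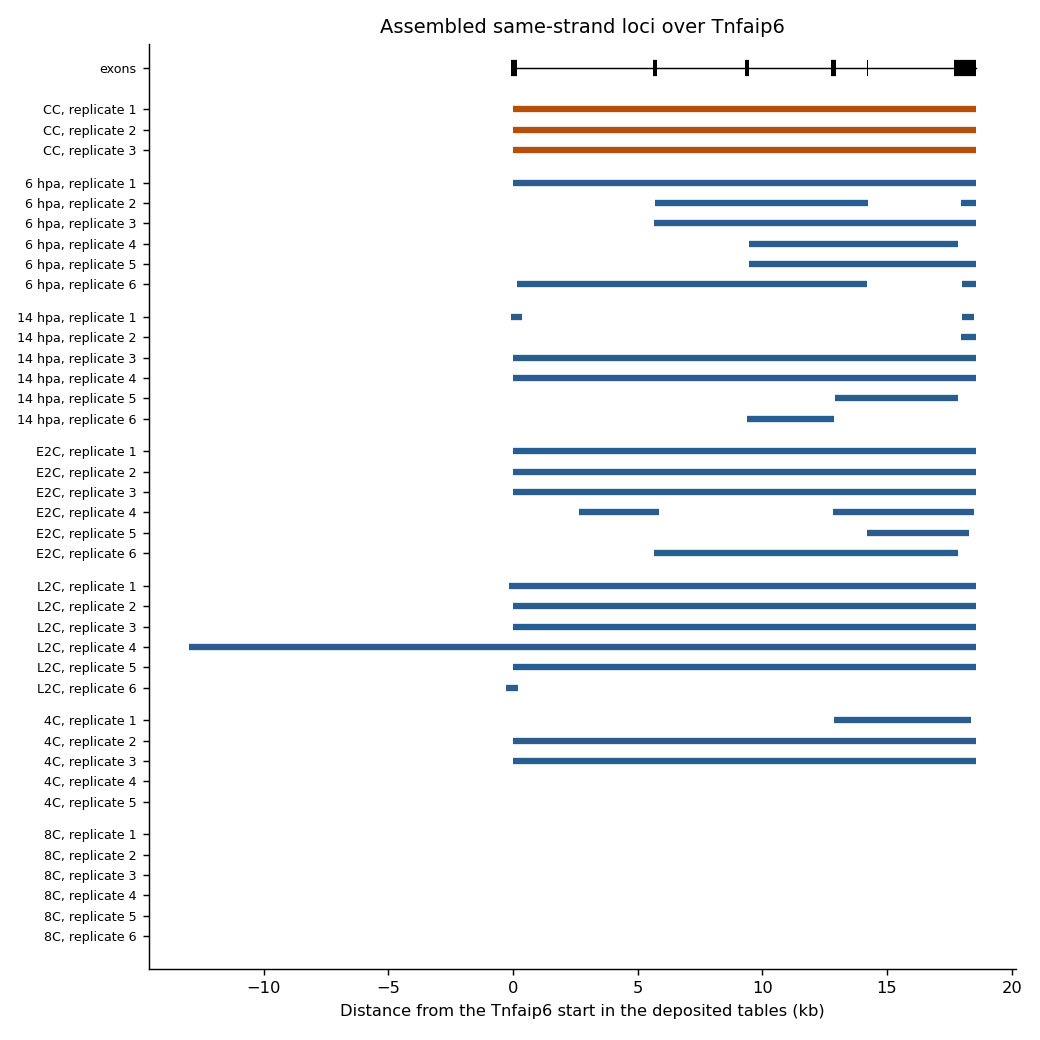
Loci assembled on the strand of Tnfaip6 in each library (orange CCs, blue SCNT embryos), by distance in kb from the start of the gene in the deposited tables, with the exons of GENCODE vM21 above. CC libraries span the whole gene, 5 of 6 L2C libraries do so too, and at 8C no locus is seen.

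With the pseudocount of 1, Areg was the only other member called at a later stage, at morula. The 6 morula libraries held 2.53, 0, 0, 2.27, 0.268 and 5.73 TPM, against at most 0.247 TPM at 14 hpa and at most 0.103 TPM at 8C. It thus passed 2 TPM in 3 of 6 libraries and was listed at 0 in 2 of them. In those 3 libraries an assembled locus spanned the whole gene, with a mean read coverage of 4.77 to 11.9 per base. The ICM held at most 0.121 TPM and the TE at most 0.487 TPM, and at any other SCNT stage the highest library, L2C replicate 6, held 0.784 TPM. No blastocyst library of SCNT embryos thus came near the 3 morula libraries. ICM replicates 1 to 3 had the fewest genes at 1 TPM of all libraries, 6177 to 6771, and the part of this was not tested.

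The rise of Areg at morula against 14 hpa was 1.02 ± 0.24 (SE) on the log2 scale, with limma adjusted p = 4.16e-04, where 20.8% of genes were called higher and both groups overlapped. The change sits at the 2-fold limit, so that it was 0.998 without any of 14 hpa replicates 1 to 4 and 0.687 to 0.895 without morula replicate 1, 4 or 6, each time under 2-fold. Within replicates 1 to 3 it was 0.61 (limma adjusted p = 0.115) and within replicates 4 to 6 it was 1.42 (limma adjusted p = 0.00303). In a fit of morula and 14 hpa alone the limma adjusted p was 0.0777, and an exact two-sided permutation test gave p = 0.0736, adjusted to 0.101.

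Fertilized blastocysts gave the background for such low levels. All 4 control libraries listed Areg at 0. The 2 TE libraries after Max MO held 1.22 and 1.40 TPM, those after Mcrs1 MO 1.96 and 0 TPM, and the ICM libraries after Mcrs1 MO 0 and 1.62 TPM, while both ICM libraries after Max MO listed it at 0. Areg was thus listed above 1 TPM in 4 of the 8 libraries with Max or Mcrs1 MO. For Max MO in the TE the libraries did not overlap those of the control, as 17% of genes did in that direction. These 2 libraries had 3.19 and 3.05 aligned gigabases, against 1.00 and 2.23 in the TE controls and 2.25 and 2.09 in the TE after Mcrs1 MO. Mean read coverage of Areg after Max MO in the TE was 1.77 to 1.95 per base. The widest locus there covered 78.7% to 78.9% of the gene. The part of depth in these levels was not tested. Tnfaip6 reached 1.21 TPM in 1 ICM library after Max MO, replicate 2, and was listed at 0 in replicate 1. For Areg in the TE after Max MO the limma change was 1.21 ± 0.55 (SE) on the log2 scale of TPM + 1, against a group at 0, with adjusted p = 0.398.

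**Figure D5:**
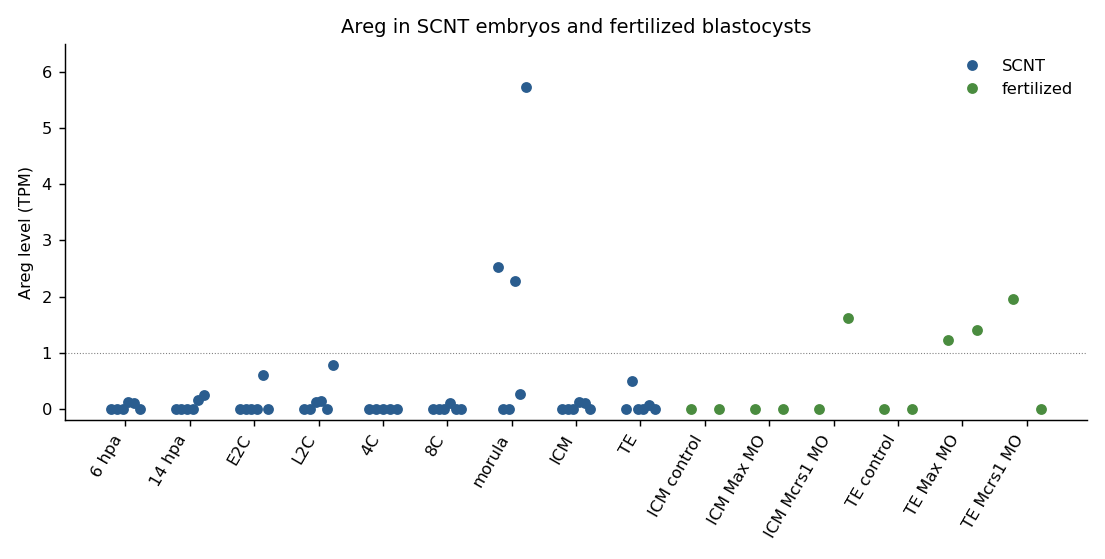
Areg in TPM in SCNT (blue) and fertilized (green) libraries, with 1 TPM dotted. Of 6 morula libraries 3 lie above 2 TPM, SCNT blastocyst libraries lie under 0.5 TPM, and 4 of 8 libraries with Max or Mcrs1 MO lie between 1.22 and 1.96 TPM.

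The other members reached 1 TPM in few SCNT libraries. Ptgs2 was at 5.00 TPM in L2C replicate 2 and at 1.21 TPM in L2C replicate 4, at 3.14 TPM in 4C replicate 1 and at 1.25 TPM in morula replicate 3, and under 1 TPM in every other SCNT library. Tnfaip6 was at 1 TPM or more in all 6 L2C libraries and in 3 of 5 at 4C, so at L2C any library with Ptgs2 would hold both. At morula, replicate 3 was the only library with either gene at 1 TPM or more. L2C replicate 2 and morula replicate 3 had a locus over the whole of each gene. Of 477 pairs of a member and an SCNT library, 40 reached 1 TPM and 287 were listed at 0.

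Ereg was at 1.75 TPM and Ptx3 at 1.12 TPM in the same library, 8C replicate 2, with a whole-length locus for Ereg and none for Ptx3. Vcan reached 1.42 TPM in L2C replicate 1 and Pgr 1.07 TPM in L2C replicate 2. Btc stayed under 1 TPM in all 53 SCNT libraries, at up to 0.941 TPM at E2C and 0.940 TPM at L2C, with a whole-length locus in 2 libraries of each stage. At E2C and at 4C limma called 0 of 9 members against 14 hpa, with 2 (Ptx3 and Btc) and 0 at an unadjusted p under 0.05. The background called in either direction was 2.6% and 30.6%.

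In blastocysts the whole set was near 0. All 9 members together summed to at most 0.162 TPM in any ICM library and 0.504 TPM in any TE library of SCNT embryos. SCNT ICM replicates 1 to 3 had 6177 to 6771 genes at 1 TPM, the lowest of all libraries, and replicates 4 to 6 had 9011 to 10032. The part of this difference in the levels was not tested. Between ICM and TE of SCNT embryos limma called 0 of 9 members, 0 at an unadjusted p under 0.05, where 2.09% of genes were called. Against fertilized control blastocysts, in which the set summed to at most 0.123 TPM, limma called 0 of 14 pairs of a member and a lineage, Ereg and Btc being at 0 in every library of that fit and not tested, where 6.11% of genes were called in the ICM and 3.61% in the TE. 3 of these pairs, Has2, Ptx3 and Vcan in the ICM, had an unadjusted p under 0.05, all at levels far under 1 TPM. limma called 0 of 28 pairs of a member and a morpholino contrast, 0 at an unadjusted p under 0.05, where 10.6% of genes were called for Max MO and 3.67% for Mcrs1 MO in the ICM, and 0.865% and 1.95% in the TE.

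The genes most like each member were sought by Pearson r over the 10 group means of log2(TPM + 1) of CCs and the SCNT groups, among 23984 genes. CCs lie far above the other groups for 7 of the 9 members, so that each r rests mostly on 1 of its 10 points, and they are given as a description. For Ptgs2 they were Zbtb4 (0.999), Vcan (0.999) and 5031410I06Rik (0.998), and 428 genes passed 0.99. For Tnfaip6 they were Adarb1 (0.989), St6gal1 (0.988) and Fam222a (0.988), and 0 genes passed 0.99. For Areg, with its morula level, they were Mir3094 (0.998), Chst1 (0.998) and Il4ra (0.997), with 19 genes past 0.99. Such an r takes no account of the level, and the CC means of these 3 were 0.229, 0.890 and 2.69 TPM, against 17.8 TPM for Areg. Ptx3, Ereg, Btc and Vcan had between 356 and 440 genes past 0.99, led by Adamts5, Lrrn2, Rbp4 and 5031410I06Rik.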

How the data were processed

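RNA-seq libraries were trimmed by the authors with Cutadapt (1.16), mapped to mm10 with HISAT2 and quantified with StringTie. The authors deposited 1 table per library with coverage, FPKM and TPM. Its TPM is treated as a signal, since loci assembled from each library sum to 1000000 and 24421 reference genes stand beside them on the same scale. The deposited coverage was divided by the deposited FPKM to give aligned gigabases. TPM of a gene listed on several rows was summed. Read counts were not used here, so count tests, counting intervals and floors are left out.

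limma 3.58.1 in R 4.3.3 (lmFit, eBayes with a trend) was fitted to log2(TPM + 1) of every gene that some library of the fit listed above 0. A call needed a Benjamini-Hochberg adjusted p under 0.05 over all genes tested and a change of at least 2-fold. CCs were fitted with 6 or 14 hpa alone, the 9 SCNT groups together (53 libraries), and the fertilized groups together or, controls only, with SCNT blastocysts. The exact permutation tests compared mean log2(TPM + 1) and were added after the values were seen. Fold changes are given for all members at 6 hpa, and elsewhere for called pairs and for pairs without overlap with a mean of at least 1 TPM. The scripts were tested on simulated data and used Python 3.11.15.

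The members and lists were chosen with earlier results of these data known. The label of a 4C library numbers it 5 where its table is numbered 6; the label's number was taken. Same-numbered libraries deviated together, with every pair's correlation over 0.1, for 14 against 6 hpa (lowest 0.155), TE against 14 hpa (0.106) and ICM against TE (0.124), but not elsewhere, and the labels do not say what the numbers mean. Alternatives were another pseudocount, a filter on the mean, rescaling over reference genes, quantile normalization, the largest row of a gene, other fit sets, a replicate block, replicates 1 to 3 or 4 to 6 alone, and each library left out.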

Additional observations from a re-analysis of the deposited data

Results flagged for a closer look

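In 15 pairs of a member and a group of 5 or 6 libraries in which some library reached 1 TPM, the highest or lowest library was set against the others by Dixon's gap on log2(TPM + 1). 7 of these pairs stood apart, in 5 libraries, 6 on the high side and 1 on the low side. Chance flags about 1 in 20 groups that were not chosen by their values. These groups entered because a library reached 1 TPM, so that rate does not apply to them and the number that stood apart says nothing beyond the values given. Ptgs2 stood apart in 4C replicate 1 at 3.14 TPM, with at most 0.0256 TPM in the others, and in morula replicate 3 at 1.25 TPM, with at most 0.0509 TPM. Tnfaip6 stood apart in the same morula replicate 3 at 2.17 TPM, with at most 0.0755 TPM in the others, and on the low side in L2C replicate 6 at 1.57 TPM, where the other 5 lay between 8.22 and 14.5 TPM. Ptx3 at 1.12 TPM and Ereg at 1.75 TPM stood apart in the same 8C replicate 2, with at most 0.0664 and 0.0239 TPM in the others. Pgr stood apart in L2C replicate 2 at 1.07 TPM, with at most 0.150 TPM in the others.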

How the results depend on the processing

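The 7 members called lower than in CCs at 6 hpa and at 14 hpa kept their direction and their call under each alternative run. The count was 7 or 8 at 6 hpa and 7 at 14 hpa. The 8, with Has2, came at a pseudocount of 0.1, where 10821 of 22742 genes were called, against 9076 with a pseudocount of 1. The count of later pairs called against 14 hpa was 6 and became 13 with a pseudocount of 0.1, where 713 to 10255 of 23938 genes were called per stage. It was 4 to 6 under the other alternatives and ranged from 4 to 6 with single libraries left out. The rise of Tnfaip6 at L2C lost its call at a pseudocount of 0.1 (limma adjusted p = 0.0922), with quantile normalization (0.269), in a fit of both groups alone (0.0781) and in replicates 1 to 3 (0.130). From 6 to 14 hpa the count went from 0 to 1 in replicates 4 to 6 alone, where Tnfaip6 changed by -1.44 with limma adjusted p = 0.0220. In the MO contrasts it was 0 to 1 with single libraries left out, the 1 being Tnfaip6 after Max MO in the ICM without replicate 1, whose lone remaining library was assumed to vary like the other groups. The replicate block gave 7, 7, 0, 6, 0, 0 and 0 calls in the 7 comparisons, so the pairing changed no count. Beyond the values named, the cause of the changes was not tested. The counts over all genes behind the background shares moved more: 1266 genes were called from 6 to 14 hpa but 793 and 2061 in the lower and higher replicate numbers, 623 from 14 hpa to E2C but 340 to 1281, 500 between ICM and TE but 6 in a fit of those groups alone, 1269 and 750 against the fertilized ICM and TE but 517 to 2075 and 607 to 1250, and 170 to 2077 per MO contrast but 0 in fits of 1 lineage for Max MO and for Mcrs1 MO in the ICM. Depth limits levels under 1 TPM, for which no counts were given.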
